A study of Arabidopsis with 12 samples.

Results

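The comparison described here sets leaf transcripts of the phytochrome A mutant phyA-211 against those of wild-type Col-0 of Arabidopsis, both shaded and both given sorbitol. It rests on 6 of the 12 libraries of the study, 3 of phyA-211 and 3 of Col-0. The other 6 hold the same genotypes given sucrose and are used to set values beside those with sorbitol. They also count in the filter and in the spread per gene behind the p-values. All groups were seedlings raised for 10 days in white light, then kept for 6 h in simulated shade (red to far-red ratio 0.17) in liquid medium with 30 mM of sorbitol or sucrose, after which leaf material was taken for poly(A) RNA. Sorbitol is a sugar alcohol given as the osmotic counterpart of sucrose. No unshaded seedlings are among the libraries, so the differences below are between genotypes in shade and say nothing of shade itself. The deposited values are TPM, which are abundances scaled to the total of each library, and all genes reaching 1 TPM in at least 3 of the 12 libraries were taken, which gave 19862 of 32833 genes. The mutant is represented by 1 line, so the loss of PHYA and any other difference carried by that line cannot be told apart.

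Phytochrome A is the plant photoreceptor that responds to far-red light. In light rich in far-red it is carried into the nucleus by FHY1 and FHL, restrains the COP1/SPA ubiquitin ligase and so lets the transcription factor HY5 accumulate, which drives light-induced genes such as those of flavonoid synthesis. It is known to limit the elongation that PIF factors drive in canopy shade once phytochrome B is inactivated, the response called shade avoidance.

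The sequencing depth is unknown, since the table holds no read counts. Each of the 12 libraries had between 22451 and 22852 genes above 0. Correlations of log2(TPM + 1) over the genes tested were 0.9598 to 0.9790 among the 3 mutant libraries, 0.9540 to 0.9702 between the genotypes and 0.9696 to 0.9822 among the 3 Col-0 libraries, all with sorbitol. No library went against its genotype label. The labels give no batch and do not say whether replicates came from separate cultures, so p-values measure only the spread between these libraries, which may be technical. In such bulk tissue, fewer cells of a kind and less RNA per cell cannot be told apart.

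With sorbitol, 154 genes were higher and 274 were lower in phyA-211 than in Col-0 (limma on log2(TPM + 1), Benjamini-Hochberg adjusted p under 0.05), which is 0.775% and 1.38% of the genes tested and 2.15% together. "Rose" and "fell" below mean such calls, and counts in lists are to be read against these shares. The lists and families were chosen with earlier results of these data known, so their counts describe the members and are no test. A size of at least 1 on the log2 scale was reached by 76 of the genes that rose and 137 of those that fell. The median log2 difference of all genes tested was 0.09, and 66.0% of them lay above 0. That median was 0.03 with median-ratio rescaling, 0.02 with quantile normalization and 0.02 without phyA-211 replicate 2. At an unadjusted p under 0.05 there were 2803 genes, 1651 higher and 1152 lower. Leaving out any 1 library gave fewer calls in both directions, 106 higher and 159 lower without phyA-211 replicate 1, 101 and 272 without phyA-211 replicate 2, 52 and 106 without phyA-211 replicate 3, 54 and 103 without Col-0 replicate 1, 71 and 148 without Col-0 replicate 2, and 151 and 267 without Col-0 replicate 3. Of the 428 genes, 140 passed in all 6 of these fits, and those are called stable to leaving out a library below.

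**Figure D1:**
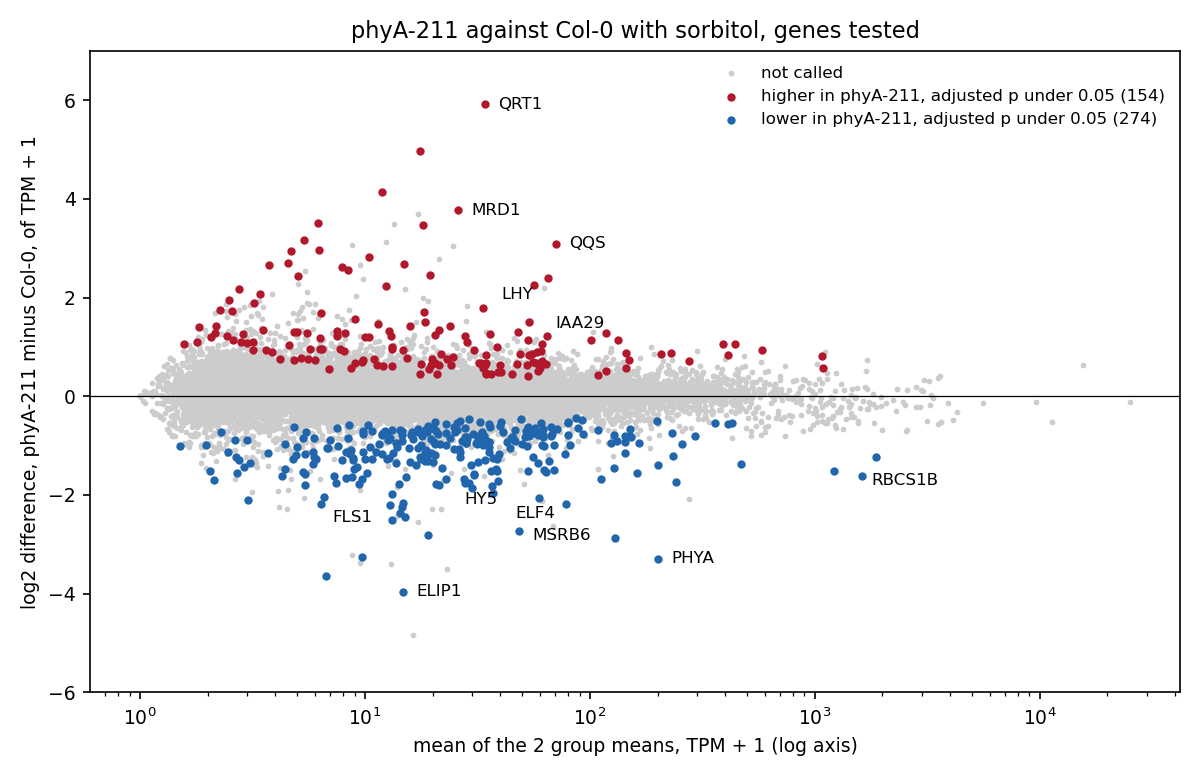
Log2 difference of TPM + 1 (phyA-211 minus Col-0, sorbitol) of each gene tested against its mean level in TPM + 1 on a log axis. The 154 genes that rose (red) and the 274 that fell (blue) lie on both sides of the uncalled genes (grey), with QRT1 at 5.92 as the highest and ELIP1 at -3.96 as the lowest of the called genes.

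PHYA itself, the mutated gene, stood at 32.5, 41.3 and 34.9 TPM in phyA-211, against 356, 346 and 385 TPM in Col-0. The mutant mean was 9.99% of that of Col-0 (log2 difference -3.29, SE 0.16, adjusted p = 7.14e-07), and the groups did not overlap. An exact 2-sided permutation test on the TPM gave p = 0.1, the smallest that 3 libraries against 3 can give. Of the 10 genes on either side of PHYA along chromosome 1 in the RefSeq order, 13 were tested and 0 passed in limma, with 3 at an unadjusted p under 0.05 and log2 differences from -0.28 to 0.91. PIF3, a bHLH factor that binds phytochromes and lies 5 genes from PHYA, had 71.95, 74.1 and 71.8 TPM in phyA-211, against 56.8, 59.8 and 63.4 TPM in Col-0, where every mutant library was above every Col-0 library but the call was missed (log2 difference 0.27, SE 0.14, adjusted p = 0.434). No neighbour fell with PHYA. With sucrose 2 of the 13 were higher in phyA-211: PIF3 had 57.6, 58.8 and 74.9 TPM in phyA-211, against 44.2, 35.8 and 30.1 TPM in Col-0 (log2 difference 0.79, adjusted p = 0.00655), and AT1G09575 had 11.8, 13.8 and 15.7 TPM in phyA-211, against 9.08, 7.04 and 7.62 TPM in Col-0 (log2 difference 0.73, adjusted p = 0.0111).

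**Figure D2:**
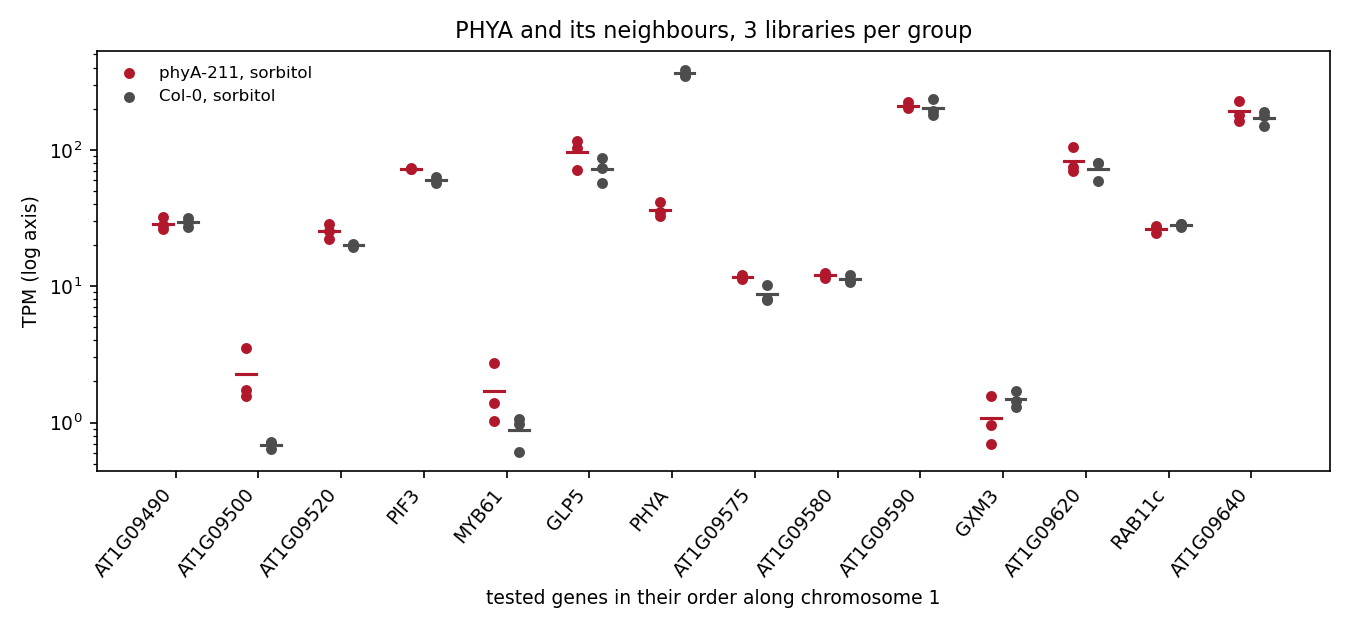
TPM (log axis) of PHYA and of its 13 tested neighbours in their order along chromosome 1, with 3 phyA-211 libraries (red, left) and 3 Col-0 libraries (grey, right) per gene and a line at each mean. PHYA is the gene of the row whose groups stand farthest apart.

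HY5, the bZIP factor at the end of phytochrome A signalling, fell to 27.1% of its Col-0 mean. It had 14.99, 15.5 and 15.4 TPM in phyA-211, against 58.8, 51.9 and 58.8 TPM in Col-0, with both groups tight and far apart (log2 difference -1.82, SE 0.17, adjusted p = 0.000267), and the call was stable to leaving out a library. Of the 8 tested genes of the HY5, COP1 and SPA list it was the 1 called, against 2.15% of all genes. HYH, the closest homologue of HY5, had 60.03, 47.98 and 54.2 TPM in phyA-211, against 65.4, 65.9 and 74.01 TPM in Col-0 and missed the call (-0.34, adjusted p = 0.307), as did COP1, the ubiquitin ligase itself (22.2, 26.7 and 21.4 TPM in phyA-211, against 33.4, 29.4 and 25.97 TPM in Col-0, -0.32, adjusted p = 0.402). FHL, one of the pair of carriers that take phytochrome A into the nucleus, rose: 15.7, 16.4 and 19.6 TPM in phyA-211, against 5.59, 5.93 and 7.36 TPM in Col-0 (log2 difference 1.33, SE 0.18, adjusted p = 0.0026). The lowest mutant library lay above the highest Col-0 library by a wide gap. Its partner FHY1 and the transcription factors FHY3 and FAR1 that switch on both carriers were not called, with log2 differences of 0.03, 0.09 and 0.01, so small that their sign changed with the rescaling or weighting of the libraries.

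Of the 13 photoreceptor genes tested, PHYA and FKF1 were called, both lower, against 1.38% of all genes. FKF1, a blue-light F-box protein of the flowering pathway, had 2.29, 5.01 and 3.95 TPM in phyA-211, against 14.5, 11.8 and 14.9 TPM in Col-0 (log2 difference -1.67, SE 0.24, adjusted p = 0.00373), a call stable to leaving out a library. It overlaps AT1G68060 in the annotation, and the strand setting of the counting is not given in the sources used here, so reads of the pair cannot be told apart. PHOT2, a blue-light receptor for chloroplast movement, had 37.99, 60.5 and 35.9 TPM in phyA-211, against 99.6, 79.9 and 60.8 TPM in Col-0 and missed the call (-0.84, adjusted p = 0.124). The 11 uncalled photoreceptor genes ran from -0.84 to 0.34.

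B-box proteins are zinc-finger factors, several of which bind HY5. Of 13 tested members 3 fell and 0 rose, against 1.38% and 0.775% of all genes. LZF1, a promoter of seedling greening, had 9.46, 11.99 and 11.4 TPM in phyA-211, against 22.8, 21.6 and 28.5 TPM in Col-0 (log2 difference -1.08, SE 0.18, adjusted p = 0.00807). STO, a brake on light signalling, had 157, 174 and 159 TPM in phyA-211, against 232, 220.2 and 245 TPM in Col-0 (log2 difference -0.51, SE 0.10, adjusted p = 0.0271). BBX32, which also holds light signalling back, had 0.8, 0.71 and 0.22 TPM in phyA-211, against 4.11, 3.13 and 1.6 TPM in Col-0 (log2 difference -1.29, SE 0.30, adjusted p = 0.0487). In all 3 genes the mutant libraries lay below those of Col-0, though only LZF1 was stable to leaving out a library. BBX8, a B-box gene outside the list, fell as well, with 15.4, 14.7 and 13.01 TPM in phyA-211, against 24.2, 22.4 and 22.1 TPM in Col-0 (log2 difference -0.64, SE 0.15, adjusted p = 0.0462), and each fit without a library lost it. BBX21, an activator of HY5, had 90.7, 120.1 and 113 TPM in phyA-211, against 75.6, 78.2 and 82.4 TPM in Col-0, higher in each mutant library without passing (0.44, adjusted p = 0.203).

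Phytochrome-interacting factors are bHLH proteins, most of which phytochromes mark for degradation. Of the 8 tested, 3 fell and 0 rose, against 1.38% and 0.775% of all genes. PIF4 had 32.8, 45.5 and 35.96 TPM in phyA-211, against 78.7, 60.7 and 61.95 TPM in Col-0 (log2 difference -0.8, SE 0.16, adjusted p = 0.0233). PIF7, the member most tied to shade responses, had 4.16, 6.65 and 4.55 TPM in phyA-211, against 15.3, 11.8 and 10.1 TPM in Col-0 (log2 difference -1.13, SE 0.24, adjusted p = 0.0332). UNE10, also known as PIF8, had 25.6, 39.5 and 27.7 TPM in phyA-211, against 67.01, 59.6 and 42.6 TPM in Col-0 (log2 difference -0.84, SE 0.19, adjusted p = 0.0482). The groups were separate for all 3. None of the 3 calls was stable: each was lost without phyA-211 replicate 1 or 3 and without Col-0 replicate 1 or 2, where 0 of the 3 passed. The other 5 members lay between -0.12 and 0.27.

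Flavonoid enzymes were lower in phyA-211. Of 15 tested enzymes, 7 fell and 0 rose, and the median log2 difference was -0.62, against 1.38% of genes lower and a median of 0.09 over all genes tested. TT4, chalcone synthase at the entry of the pathway, had 23.1, 29.8 and 25.2 TPM in phyA-211, against 177, 131 and 77.6 TPM in Col-0 (log2 difference -2.19, SE 0.24, adjusted p = 0.000625). F3H, flavanone 3-hydroxylase, had 3.81, 5.16 and 4.09 TPM in phyA-211, against 21.6, 18.8 and 19.6 TPM in Col-0 (log2 difference -1.98, SE 0.23, adjusted p = 0.00106). FLS1, flavonol synthase, had 3.56, 4.16 and 3.03 TPM in phyA-211, against 25.4, 19.7 and 16.1 TPM in Col-0 (log2 difference -2.21, SE 0.18, adjusted p = 8.57e-05). In each of the 3 genes the Col-0 library with the least transcript still had more than the mutant library with the most. CHIL, a chalcone isomerase-like protein that aids chalcone synthase, had 9.98, 10.8 and 7.82 TPM in phyA-211, against 26.97, 23.4 and 20.7 TPM in Col-0 (log2 difference -1.23, SE 0.15, adjusted p = 0.0012). TT5, chalcone isomerase, changed less, with 18.3, 22.3 and 15.6 TPM in phyA-211, against 30.5, 26.8 and 30.1 TPM in Col-0 (-0.62, adjusted p = 0.0341). Among the enzymes that attach sugars, UGT78D2, which glucosylates flavonols and anthocyanidins, had 20.6, 22.4 and 20.5 TPM in phyA-211, against 46.9, 37.4 and 37.02 TPM in Col-0 (log2 difference -0.9, SE 0.12, adjusted p = 0.00258), and AT1G06000, a UDP-glycosyltransferase, had 7.56, 14.4 and 7.26 TPM in phyA-211, against 29.1, 27.9 and 18.3 TPM in Col-0 (-1.32, adjusted p = 0.0274). TT5 and AT1G06000 were named after their values were seen. Of the 7 calls, 5 were stable to leaving out a library, and the fewest left in any of those fits was 5.

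The regulators of the pathway were not called: 0 of 10 tested passed in limma, with 2 at an unadjusted p under 0.05. MYB12, an activator of flavonol synthesis, had 0.13, 0.59 and 0.26 TPM in phyA-211, against 0.96, 1.77 and 1.95 TPM in Col-0 (-0.94, adjusted p = 0.0805), and its homologue MYB111 had 1.73, 1 and 0.7 TPM in phyA-211, against 4.33, 2.8 and 3.6 TPM in Col-0 (-1.11, adjusted p = 0.115). Both lay below Col-0 in every mutant library, at levels where the added 1 TPM shrinks a log2 difference. In the phenylpropanoid entry that feeds flavonoids and lignin, 1 of 8 genes was called, against 2.15% of all genes. It was 4CL3, the coumarate ligase of the flavonoid branch, with 1.61, 1.89 and 1.48 TPM in phyA-211, against 8.8, 8.18 and 4.49 TPM in Col-0 (log2 difference -1.57, SE 0.26, adjusted p = 0.00845), and it was lost without phyA-211 replicate 3 or Col-0 replicate 1.

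Photoprotection genes fell in 4 of 8 cases, against 1.38% of all genes, with a median of -0.83 and all 8 below 0. ELIP1, an early light-induced protein that binds pigments in the thylakoid under light stress, was nearly gone: 0.54, 0.6 and 0.74 TPM in phyA-211, against 12.3, 31 and 37.3 TPM in Col-0 (log2 difference -3.96, SE 0.33, adjusted p = 8.50e-05). ELIP2, its close copy, had 4.53, 2.65 and 4.03 TPM in phyA-211, against 11.6, 21.6 and 36.9 TPM in Col-0 (log2 difference -2.24, SE 0.33, adjusted p = 0.00398). Col-0 libraries differed about 3-fold among themselves in both genes yet stayed above the mutant, and reads of the 2 copies may be shared. SIGE, the light-responsive plastid sigma factor SIG5, had 18.2, 26.2 and 18.7 TPM in phyA-211, against 56.4, 47.9 and 48.9 TPM in Col-0 (log2 difference -1.26, SE 0.24, adjusted p = 0.0203). NPQ1, the violaxanthin de-epoxidase of heat dissipation, had 30.6, 37.2 and 29.8 TPM in phyA-211, against 79.2, 54.05 and 61.8 TPM in Col-0 (log2 difference -0.97, SE 0.19, adjusted p = 0.0233). The ELIP calls were stable, while SIGE and NPQ1 were each lost in 4 of the 6 fits without a library.

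Nuclear genes for the chloroplast NDH complex, which cycles electrons around photosystem I, also stood lower. This group was picked after the values were seen, so its counts are no test. Of its 17 subunit genes, 6 fell and 0 rose, against 1.38% and 0.775% of all genes. All 17 lay below 0, with a median of -0.71. PnsL3 had 14.3, 9.89 and 11.4 TPM in phyA-211, against 60.6, 35.2 and 42.6 TPM in Col-0 (log2 difference -1.85, SE 0.32, adjusted p = 0.0103), and NdhN had 24.6, 20.97 and 21.2 TPM in phyA-211, against 57.98, 43.2 and 39.5 TPM in Col-0 (log2 difference -1.03, SE 0.17, adjusted p = 0.00894). PnsB2 had 31.7, 27.6 and 25.3 TPM in phyA-211, against 64.3, 58.9 and 42.3 TPM in Col-0 (-0.93, adjusted p = 0.0184), and NdhM had 37.4, 29 and 28.8 TPM in phyA-211, against 116, 84.6 and 74.2 TPM in Col-0 (-1.49, adjusted p = 0.0233). PnsB3 (-1.51, adjusted p = 0.0321) and NdhT (-1.13, adjusted p = 0.0394) completed the 6. The mutant libraries lay below Col-0 in 13 of the 17 genes, against 6.63% of all genes tested. None of the 6 passed in all fits without a library, and 0 passed without phyA-211 replicate 3, where 158 of the 428 calls remained. Lhca6, an antenna protein that links NDH to photosystem I, had 25.8, 18.7 and 20.6 TPM in phyA-211, against 63.9, 48.05 and 49.8 TPM in Col-0 (log2 difference -1.27, SE 0.23, adjusted p = 0.0152).

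Other chloroplast lists gave fewer calls. Among 25 antenna and Rubisco small-subunit genes 2 fell, RBCS1B and Lhca6, against 1.38% of all genes. Their median was -0.33 and 24 lay below 0, against 6744 of all 19862 genes tested. RBCS1B, a Rubisco small-subunit gene, had 931, 755 and 706 TPM in phyA-211, against 2889, 2199 and 2233 TPM in Col-0 (log2 difference -1.61, SE 0.18, adjusted p = 0.000893), and RBCS2B beside it had 2282, 1639.7 and 1923 TPM in phyA-211, against 3506, 2845 and 3071 TPM in Col-0 and was not called (-0.7, adjusted p = 0.171). Near-identical copies make the split of reads between them uncertain. The summed level of the 25 genes was 74143 to 80772 TPM in phyA-211, against 86973 to 102348 TPM in Col-0, so the ranges did not overlap. Chlorophyll synthesis with the GLK factors had 0 of 20 genes called in limma and 5 at an unadjusted p under 0.05, all lower. Among them, POR C, a protochlorophyllide reductase, had a log2 difference of -0.68, adjusted p = 0.125. GUN4, a regulator of chlorophyll synthesis, stood at -0.55, adjusted p = 0.215, and GLK2, an activator of chloroplast genes, at -0.61, adjusted p = 0.185. Carotenoid synthesis had 3 of 11 genes called, all lower, against 1.38% of all genes, and all 11 lay below 0. BETA-OHASE 1, a carotene hydroxylase, had 50.4, 48.5 and 45.02 TPM in phyA-211, against 93.2, 77.7 and 82.1 TPM in Col-0 (log2 difference -0.8, SE 0.11, adjusted p = 0.0026). LUT2, lycopene epsilon-cyclase, had 31.6, 31.6 and 27.1 TPM in phyA-211, against 56.4, 53.7 and 41.4 TPM in Col-0 (-0.72, adjusted p = 0.0181), and CYP97A3, another carotene hydroxylase, had 45.05, 43.97 and 40.2 TPM in phyA-211, against 81.1, 66.8 and 58.5 TPM in Col-0 (-0.65, adjusted p = 0.0487). CGA1, a GATA factor that promotes chloroplast development, was among the largest falls of all genes, with 4.65, 5.31 and 3.21 TPM in phyA-211, against 28.1, 19.02 and 22.2 TPM in Col-0 (log2 difference -2.16, SE 0.21, adjusted p = 0.000387). Its paralogue GNC fell less, to 20.1, 24.1 and 20.97 TPM in phyA-211, against 45.3, 39.4 and 35.2 TPM in Col-0 (log2 difference -0.85, SE 0.17, adjusted p = 0.022), and was named after its values were seen.

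**Figure D3:**
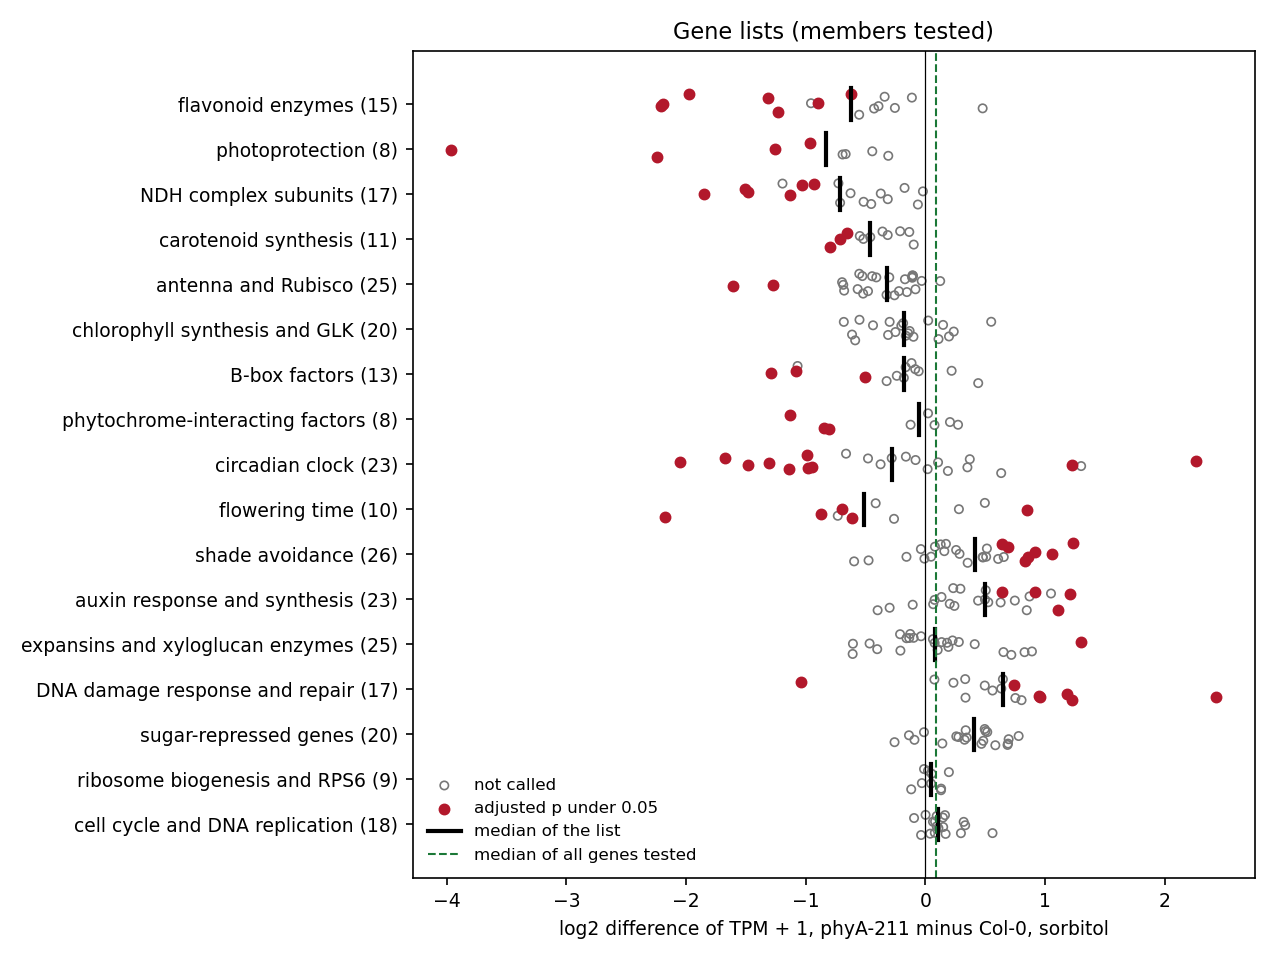
Log2 difference of TPM + 1 (phyA-211 minus Col-0, sorbitol) of every tested member of 17 gene lists, filled red where the adjusted p was under 0.05, with a black bar at the list median and a dashed line at the median of all genes, 0.09. Flavonoid, photoprotection and NDH genes lie to the left, shade-avoidance and auxin genes to the right, and the ribosome and cell cycle lists sit near the median of all genes.

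The circadian clock list had calls in both directions, 2 higher and 8 lower of 23 tested, against 0.775% and 1.38% of all genes. LHY, a morning MYB factor, had 76.6, 109.9 and 85.3 TPM in phyA-211, against 21.8, 28.6 and 9.01 TPM in Col-0 (log2 difference 2.26, SE 0.35, adjusted p = 0.00612), and RVE8, a morning activator, had 32.05, 45.9 and 35.3 TPM in phyA-211, against 19.1, 20.5 and 9.21 TPM in Col-0 (1.22, adjusted p = 0.0274). Genes known to peak in the day or evening were among those that fell. ELF4, a subunit of the evening complex, had 20.8, 20.2 and 25.1 TPM in phyA-211, against 85.4, 83.3 and 117 TPM in Col-0 (log2 difference -2.05, SE 0.16, adjusted p = 7.96e-05), and PCL1, also known as LUX, its DNA-binding subunit, had 44.1, 49.3 and 42.8 TPM in phyA-211, against 101, 82.97 and 89.3 TPM in Col-0 (log2 difference -0.99, SE 0.12, adjusted p = 0.0016). PRR3, a pseudo-response regulator, had 10.8, 10.8 and 10.3 TPM in phyA-211, against 27.5, 22.4 and 24.2 TPM in Col-0 (log2 difference -1.14, SE 0.13, adjusted p = 0.00106). GI, a scaffold protein of the evening, had 8.49, 17.4 and 11.7 TPM in phyA-211, against 42.1, 38.1 and 41.4 TPM in Col-0 (-1.67, adjusted p = 0.00268). TOC1 had 33.3, 47.05 and 40.3 TPM in phyA-211, against 83.3, 76.5 and 79.7 TPM in Col-0 (-0.98, adjusted p = 0.0121), and PRR5 had 7.32, 14.02 and 9.24 TPM in phyA-211, against 26.2, 23.9 and 27.8 TPM in Col-0 (-1.31, adjusted p = 0.0066), both repressors of the morning genes. EPR1, a MYB factor also known as RVE7, had 33.8, 37.2 and 34.1 TPM in phyA-211, against 95.7, 77.8 and 133 TPM in Col-0 (log2 difference -1.48, SE 0.18, adjusted p = 0.00145), and AT5G64170, listed by RefSeq as LNK1, a coactivator of clock genes, had 14.6, 24.5 and 16.1 TPM in phyA-211, against 38.8, 35.6 and 32.9 TPM in Col-0 (-0.95, adjusted p = 0.0188). In each of these 10 genes the groups did not overlap, and 7 of the 10 calls were stable to leaving out a library. RVE8, GI, PRR5, TOC1 and AT5G64170 were named after their values were seen. The labels do not give the hour of collection of each library.

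Of 26 shade-avoidance genes tested, 7 rose and 0 fell, with a median of 0.42, against 0.775% of genes higher over all genes tested. Separation of the groups, with all 3 mutant libraries above all 3 Col-0 libraries, was seen in 14 of the 26, against 13.4% of all genes. IAA29, an Aux/IAA repressor and a direct PIF target, had 79.6, 79.5 and 76.5 TPM in phyA-211, against 41.1, 39.4 and 42.9 TPM in Col-0 (log2 difference 0.92, SE 0.09, adjusted p = 0.000434), with hardly any spread in either group. PKS4, a phytochrome kinase substrate that acts in phototropism, had 40.6, 44.3 and 44.7 TPM in phyA-211, against 25.1, 23.7 and 22.7 TPM in Col-0 (log2 difference 0.83, SE 0.12, adjusted p = 0.00365). CKX5, a cytokinin oxidase, had 14.2, 23.4 and 14.6 TPM in phyA-211, against 6.93, 7.85 and 5.41 TPM in Col-0 (log2 difference 1.23, SE 0.19, adjusted p = 0.00511), and it overlaps 3 other loci, of which AT1G09557 rose too. ST2A, a sulfotransferase of hydroxyjasmonate induced by shade, had 495, 798 and 505 TPM in phyA-211, against 276, 315 and 255 TPM in Col-0 (log2 difference 1.06, SE 0.20, adjusted p = 0.0184). The homeobox genes HAT2 and HB4 rose as well, HAT2 with 66.7, 64.2 and 80.04 TPM in phyA-211, against 33.05, 48.5 and 34.5 TPM in Col-0 (0.86, adjusted p = 0.0233) and HB4, also known as ATHB4, with 11.1, 11.6 and 10.04 TPM in phyA-211, against 8.01, 5.18 and 6.28 TPM in Col-0 (0.69, adjusted p = 0.0492). Both were named after their values were seen. IAA29, PKS4 and CKX5 were stable to leaving out a library, and the fewest left of the 7 was 3, without Col-0 replicate 3.

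Auxin response and synthesis genes overlap with that list. They showed 4 of 23 higher and 0 lower, against 0.775% and 1.38% of all genes, with a median of 0.50. Beside IAA29, IAA19 had 40.5, 48.9 and 53.5 TPM in phyA-211, against 30.4, 28.9 and 30.6 TPM in Col-0 (log2 difference 0.64, SE 0.14, adjusted p = 0.0364), and IAA5 had 1.75, 1.54 and 2.37 TPM in phyA-211, against 0.31, 0.33 and 0.1 TPM in Col-0 (log2 difference 1.21, SE 0.19, adjusted p = 0.00708), both Aux/IAA genes switched on by auxin. GH3.3, which conjugates auxin to amino acids, had 26.7, 54.1 and 33.1 TPM in phyA-211, against 20.2, 19.2 and 11.2 TPM in Col-0 (log2 difference 1.1, SE 0.26, adjusted p = 0.0493). Each group pair was separate, and IAA29 was the 1 gene of the 4 stable to leaving out a library. Among 25 expansin and xyloglucan enzyme genes of the cell wall 1 rose, against 0.775% of all genes. It was XTH17, with 53.8, 71.6 and 74.04 TPM in phyA-211, against 34.1, 27.8 and 18.8 TPM in Col-0 (log2 difference 1.3, SE 0.24, adjusted p = 0.0181), and its close copy XTH18 makes the split of reads uncertain. The call was lost without phyA-211 replicate 2 or 3 and without Col-0 replicate 2. XTH30 (0.83, adjusted p = 0.0837) and XTH16 (-0.61, adjusted p = 0.0818) were not called and stood on opposite sides of 0. In gibberellin metabolism 1 of 19 genes was called, against 2.15% of all genes. ATGA2OX1, which inactivates gibberellins, had 0.06, 0 and 0.11 TPM in phyA-211, against 1.92, 2.67 and 1.56 TPM in Col-0 (log2 difference -1.51, SE 0.19, adjusted p = 0.00145), with 1 mutant library listed at 0. With either sugar, every mutant library had less than 1 TPM of it. So it met the filter only through Col-0 libraries, where it is high, and its p-value is no independent support. GA2OX6, of the same enzyme class, had 29.7, 34.99 and 28.6 TPM in phyA-211, against 17.5, 20.3 and 17.4 TPM in Col-0 without passing (0.72, adjusted p = 0.143).

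Flowering-time repressors were split. Of 10 tested genes, 1 rose and 4 fell, against 0.775% and 1.38% of all genes. FLC, the MADS repressor of the autonomous and vernalization pathways, had 58.95, 57.4 and 69.04 TPM in phyA-211, against 27.97, 31.7 and 43.03 TPM in Col-0 (log2 difference 0.85, SE 0.16, adjusted p = 0.0185). Its relatives MAF5 and MAF4, neighbours on chromosome 5, went the other way: MAF5 had 1.38, 0.79 and 1.45 TPM in phyA-211, against 7.38, 15.2 and 6.11 TPM in Col-0 (log2 difference -2.18, SE 0.28, adjusted p = 0.00202), and MAF4 had 9.47, 11.2 and 9.61 TPM in phyA-211, against 15.1, 18.02 and 17.97 TPM in Col-0 (log2 difference -0.7, SE 0.13, adjusted p = 0.0151). SVP, the MADS partner of FLC, had 29.4, 33.5 and 28.7 TPM in phyA-211, against 52.7, 49.5 and 40.04 TPM in Col-0 (-0.61, adjusted p = 0.0439) and was named after its values were seen. SMZ, an AP2-type repressor, had 11.2, 11.04 and 9.32 TPM in phyA-211, against 23.96, 16.8 and 19.9 TPM in Col-0 (log2 difference -0.87, SE 0.17, adjusted p = 0.0225). Groups were separate for all 5 genes. MAF5 was the 1 call stable to leaving out a library, and without phyA-211 replicate 1 or 3 it was the 1 call left. Reads may be shared among the MAF copies.

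**Figure D4:**
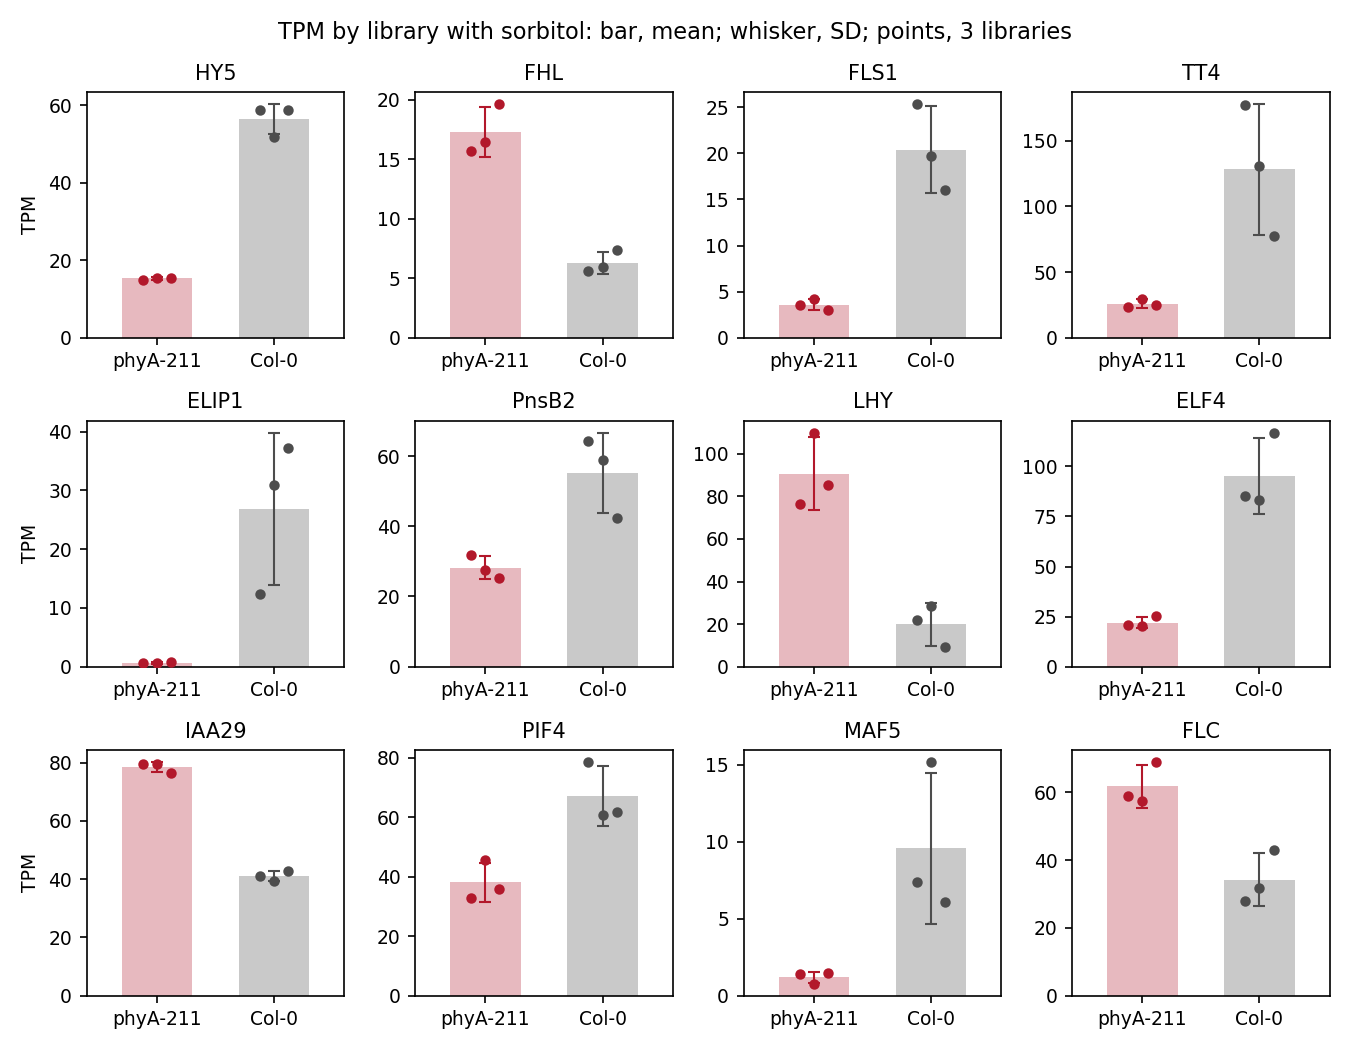
TPM of 12 genes with sorbitol, phyA-211 (red, left) beside Col-0 (grey, right), as bars at the mean with the SD and the 3 libraries as points, each axis starting at 0. FHL, LHY, IAA29 and FLC are higher in every mutant library, and HY5, FLS1, TT4, ELIP1, PnsB2, ELF4, PIF4 and MAF5 are lower.

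Of the 12 genes with a symbol that rose most, all but LHY lay outside these lists. QRT1, a pectin methylesterase known for the separation of pollen grains, had 63.8, 60.99 and 73.6 TPM in phyA-211, against 0.08, 0.09 and 0.15 TPM in Col-0 (log2 difference 5.92, SE 0.14, adjusted p = 6.46e-10), the largest difference of any called gene. QRT1 overlaps AT5G55600 in the annotation. With either sugar, every Col-0 library had less than 1 TPM of it. So it met the filter only through mutant libraries, where it is high, and its p-value is no independent support. QQS, a gene found in Arabidopsis alone that affects starch content, had 161, 86.2 and 129.7 TPM in phyA-211, against 13.2, 10.6 and 17.1 TPM in Col-0 (log2 difference 3.09, SE 0.25, adjusted p = 8.22e-05). MRD1, named for a fall in a methionine-overproducing mutant, had 37.5, 51.9 and 49.6 TPM in phyA-211, against 5.93, 4.63 and 0.04 TPM in Col-0 (log2 difference 3.77, SE 0.55, adjusted p = 0.00389), and HEI10, a RING protein of meiotic crossover that overlaps MRD1 in the annotation, had 16.9, 19.5 and 21.9 TPM in phyA-211, against 3.91, 2.94 and 3.22 TPM in Col-0 (log2 difference 2.23, SE 0.17, adjusted p = 6.01e-05). Since the pair overlaps, the reads of one may be counted for the other. LBD26, a LOB-domain protein, had 12.7, 10.9 and 14.1 TPM in phyA-211, against 0.73, 1.88 and 1.09 TPM in Col-0 (log2 difference 2.63, SE 0.21, adjusted p = 7.96e-05). These 5 calls were stable to leaving out a library.

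The 12 genes with a symbol that rose most also held these genes. GH9B15, a glycosyl hydrolase of the endoglucanase class, had 14.2, 22.1 and 39.2 TPM in phyA-211, against 3.35, 1.92 and 3.25 TPM in Col-0 (log2 difference 2.68, SE 0.33, adjusted p = 0.00161). PGAZAT, the polygalacturonase ADPG2 of organ shedding, had 64.8, 96.7 and 161 TPM in phyA-211, against 17.1, 9.01 and 38.2 TPM in Col-0 (log2 difference 2.4, SE 0.54, adjusted p = 0.0458), with wide spread in both groups, and 5 of the 6 fits without a library lost it. ATPMEPCRD, of the pectin methylesterase inhibitor family, had 11.8, 18.7 and 17.1 TPM in phyA-211, against 4.01, 4.85 and 6.44 TPM in Col-0 (log2 difference 1.46, SE 0.25, adjusted p = 0.0091). DTX1, an efflux carrier, had 10.5, 13.5 and 13.4 TPM in phyA-211, against 2.44, 4.96 and 3.57 TPM in Col-0 (log2 difference 1.56, SE 0.31, adjusted p = 0.0217), and CYP71B23, a cytochrome P450, had 19.9, 24.9 and 21.1 TPM in phyA-211, against 4.96, 8.24 and 10.2 TPM in Col-0 (log2 difference 1.42, SE 0.23, adjusted p = 0.00677). CYP71B23 stands in a row with CYP71B3 and CYP71B24, which rose by 1.00 and 1.04 on the log2 scale, and such copies may share reads. Those 2 copies were named after their values were seen. Another 17 genes without a symbol that reached 5 TPM on average in either genotype, with groups that did not overlap, rose by as much as the 12 or more. AT5G24240, a phosphatidylinositol 4-kinase gamma-like gene among them, was named after its values were seen, with 17.7, 27.7 and 19.3 TPM in phyA-211, against 0.35, 0.16 and 0.25 TPM in Col-0 (log2 difference 4.15, SE 0.18, adjusted p = 4.29e-07).

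Of the 12 genes with a symbol that fell most, 3 are not yet described, all enzymes. FBA5, a fructose-bisphosphate aldolase, had 21.1, 42.5 and 27.8 TPM in phyA-211, against 284, 155 and 238 TPM in Col-0 (log2 difference -2.86, SE 0.43, adjusted p = 0.00495), though it overlaps the aldolase AT4G26520, so reads may be split. MSRB6, a methionine sulfoxide reductase, had 11.8, 15.2 and 7.97 TPM in phyA-211, against 108, 63.3 and 76.6 TPM in Col-0 (log2 difference -2.73, SE 0.24, adjusted p = 0.000176). Next to it, KEA3, the thylakoid potassium antiporter that tunes photoprotection, had 10.6, 15.8 and 8.7 TPM in phyA-211, against 32.5, 25.9 and 24.1 TPM in Col-0 (log2 difference -1.19, SE 0.23, adjusted p = 0.0212) and was named after its values were seen. CYP706A6, a cytochrome P450, had 2.74, 6.68 and 2.13 TPM in phyA-211, against 31.4, 19.3 and 17.9 TPM in Col-0 (log2 difference -2.37, SE 0.31, adjusted p = 0.00215), and its neighbour CYP706A5 fell by 0.86 on the log2 scale. FBA5, MSRB6 and CYP706A6 were separate between the groups by more than 2-fold at the closest libraries. Another 6 genes without a symbol, under the same floor of 5 TPM and with groups that did not overlap, fell by as much as the 12 or more.

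Called genes lay next to each other in 19 pairs of neighbouring tested genes, and in 16 of them both members moved the same way. Some pairs overlap and may share reads, such as MRD1 with HEI10. How many pairs 428 calls would give by position alone was not worked out, so the count is no result about position. Of the 428 called genes, 154 overlap another annotated locus, where the split of reads is uncertain. The share of overlapping loci over all genes tested was not counted, so this is no trait of the called genes. By chromosome, 2.06% to 2.24% of the tested genes were called on each of the 5, against 2.15% over all genes tested. Called genes named in the text that overlap another locus, beside those said to, include AT1G06000, AT2G21210, AT4G00165, AT5G02760, AT5G24240, AT5G64170, ATAF1, BBX8, BBX32, CYP97A3, DTX1, F3H, FLC, GH9B15, GMI1, IAA5, KU70, LUT2, NPQ1, NdhN, PCL1, PIF7, PnsB3, PnsL3, SMZ, STO and TT4. Uncalled genes named in the text that overlap another locus include PHOT2, GUN4, POR C and COR15B.

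Noncoding RNA genes, a family picked after the values were seen, had 14 higher and 6 lower of 824 tested, which together is near the 2.15% called over all genes. AT1G06407 had 6.82, 6.37 and 8.65 TPM in phyA-211, against 0.24, 0 and 0 TPM in Col-0 (log2 difference 2.94, SE 0.19, adjusted p = 2.46e-05), and AT1G31095, a gene of the malate dehydrogenase family that overlaps it and was named after its values were seen, had 8.35, 6.86 and 5.44 TPM in phyA-211, against 0.15, 0.16 and 0.3 TPM in Col-0 (2.7, adjusted p = 8.22e-05). AT2G05695 had 3.56, 3.74 and 3.28 TPM in phyA-211, against 0, 0 and 0 TPM in Col-0, listed at 0 in every Col-0 library (adjusted p = 6.01e-05). U1.6, a gene for a U1 spliceosomal RNA, had 52.8, 27.6 and 19.1 TPM in phyA-211, against 0, 0 and 0 TPM in Col-0 (adjusted p = 0.0326), but it overlaps the gene AT3G05700, the 3 mutant libraries ranged widely, and each fit without a library lost the call. Of 71 tested genes of the plastid and mitochondrial genomes, ATMG01130 was the 1 called, listed at 0 in each mutant library against 1.8, 2.17 and 2.89 TPM in Col-0 (adjusted p = 0.013). It was at 0 in each mutant library with sucrose too, so it met the filter only through Col-0 libraries, where it is high. Libraries at 0 add no spread, so p-values of genes at 0 in a whole group, here and below, are no independent support.

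Genes of DNA damage response and repair were a group picked after the values were seen, so their counts are no test. Of 17 tested, 6 rose and 1 fell, against 0.775% and 1.38% of all genes. Of the 17, 16 lay above 0, against 66.0% of all genes, with a median of 0.65. AT3G27630, a cell cycle inhibitor of the SMR3-like kind, had 7.93, 7.28 and 7.34 TPM in phyA-211, against 0.65, 0.7 and 0.4 TPM in Col-0 (log2 difference 2.43, SE 0.23, adjusted p = 0.000267). PARP2, a poly(ADP-ribose) polymerase, had 7.17, 11.3 and 10.1 TPM in phyA-211, against 3.29, 4.03 and 3.02 TPM in Col-0 (log2 difference 1.23, SE 0.20, adjusted p = 0.00801). TK1a, a thymidine kinase, had 18.2, 17.6 and 19.4 TPM in phyA-211, against 8.09, 9.14 and 10 TPM in Col-0 (log2 difference 0.95, SE 0.15, adjusted p = 0.0055). GMI1, of the SMC-hinge family and induced by radiation, had 5.73, 10.8 and 6.82 TPM in phyA-211, against 2.97, 3.28 and 2.11 TPM in Col-0 (log2 difference 1.18, SE 0.25, adjusted p = 0.0291). XRI1, a gene induced by X-rays, rose by a similar size (0.95, adjusted p = 0.0462). KU70, a subunit that binds broken ends, fell: 3.03, 3.71 and 3.69 TPM in phyA-211, against 8.39, 9.16 and 7.14 TPM in Col-0 (log2 difference -1.04, SE 0.15, adjusted p = 0.00354). SOG1, the regulator of the response, had 10.04, 12.5 and 9.78 TPM in phyA-211, against 8.85, 9.47 and 8.59 TPM in Col-0 and was not called (0.23, adjusted p = 0.467), as were NAC103 (0.8, adjusted p = 0.0864), PARP1 (0.33, adjusted p = 0.4) and BRCA1 (0.63, adjusted p = 0.266). AT3G27630, TK1a and KU70 were stable to leaving out a library.

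By the words of the deposited descriptions, 37 families of at least 10 tested genes were counted. Over all genes tested 0.775% rose and 1.38% fell, and a family's count near these shares is no result about the family. The cytochrome P450 family had 3 higher and 7 lower of 146, UDP-glycosyltransferases 4 higher and 7 lower of 93, and pectin enzymes and their inhibitors 4 higher and 2 lower of 96. AT4G27560, a glycosyltransferase, had 2.36, 2.74 and 2.45 TPM in phyA-211, against 12.2, 11.3 and 6.81 TPM in Col-0 (log2 difference -1.62, SE 0.18, adjusted p = 0.000857), and AT1G66540, a P450, had 0.3, 1.04 and 0.43 TPM in phyA-211, against 3.63, 3.14 and 2.86 TPM in Col-0 (log2 difference -1.43, SE 0.19, adjusted p = 0.00223). MATE efflux carriers had 3 higher of 37, led by ZF14 with 7.87, 10.8 and 8.96 TPM in phyA-211, against 3.31, 5.02 and 4.58 TPM in Col-0 (0.95, adjusted p = 0.0188). NAC factors had 2 higher of 54: NAC016, tied to leaf ageing, had 2.17, 2.63 and 2.92 TPM in phyA-211, against 0.48, 0.63 and 0.73 TPM in Col-0 (log2 difference 1.14, SE 0.18, adjusted p = 0.00628), and ATAF1 had 32.96, 45.9 and 37.6 TPM in phyA-211, against 21.6, 26.6 and 23.01 TPM in Col-0 (0.68, adjusted p = 0.0389). The 3 SAUR genes that fell of 59 included AT2G21210, with 39.4, 33.4 and 35.6 TPM in phyA-211, against 66.8, 54.9 and 72.4 TPM in Col-0 (-0.82, adjusted p = 0.00905), while 1 rose. RING/U-box proteins had 2 higher and 3 lower of 213, a share near the 2.15% called over all genes, with AT5G47610 at 21.4, 20.96 and 22.2 TPM in phyA-211, against 47.6, 45.02 and 51.4 TPM in Col-0 (log2 difference -1.12, SE 0.14, adjusted p = 0.00176). Lipid transfer proteins had 3 lower of 63, led by AT4G00165 with 13.97, 11.02 and 17.9 TPM in phyA-211, against 65.2, 49.3 and 59.5 TPM in Col-0 (log2 difference -1.96, SE 0.18, adjusted p = 0.000244). GDSL lipases had 1 higher and 3 lower of 50. ESM1 of this family, which shifts glucosinolate breakdown, had 154, 139 and 127 TPM in phyA-211, against 373, 313 and 289 TPM in Col-0 (log2 difference -1.2, SE 0.22, adjusted p = 0.0173).

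Families with 0 calls in limma included the ribosomal proteins (0 of 317, 8 at an unadjusted p under 0.05), WRKY factors (0 of 35, 5 unadjusted), glutathione S-transferases (0 of 44, 9 unadjusted), ABC transporters (0 of 55, 4 unadjusted), EF-hand and calmodulin genes (0 of 83, 6 unadjusted) and histones (0 of 45, 4 unadjusted). Over all 19862 genes tested, 2803 had such an unadjusted p. The shares above 0 were 74.4%, 91.4%, 63.6%, 74.5%, 85.5% and 71.1% in that order, against 66.0% of all genes. A missed call does not show that the genotypes were alike. Pentatricopeptide and tetratricopeptide repeat genes had 3 lower of 481, 1 of them LPA66, an editing factor for a photosystem II transcript, with 5.62, 6.12 and 5.66 TPM in phyA-211, against 9.74, 9.1 and 8.56 TPM in Col-0 (-0.57, adjusted p = 0.022). Photosystem and light-harvesting descriptions had 3 lower of 54. PSB28, a photosystem II assembly protein, had 106, 85.2 and 81.2 TPM in phyA-211, against 198, 157 and 157 TPM in Col-0 (log2 difference -0.91, SE 0.14, adjusted p = 0.00659).

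Lists on sugar status and growth, which the study's title ties to sucrose and leaf development, had 0 calls in limma. Sugar-repressed genes had 0 of 20 called and 3 at an unadjusted p under 0.05, with a median of 0.41 and 16 above 0. TPS10, a trehalose-phosphate synthase-like protein, had 103, 128 and 110.2 TPM in phyA-211, against 77.7, 80.5 and 80.6 TPM in Col-0 (0.5, adjusted p = 0.214), and EXL2 had 655, 708 and 755 TPM in phyA-211, against 348, 429 and 549.6 TPM in Col-0 (0.7, adjusted p = 0.121). Both were separate between the groups without passing. ATL8 (0.69, adjusted p = 0.204) and BGAL4 (0.78, adjusted p = 0.459) stood higher too. Sugar-induced genes had 0 of 7, and ribosome biogenesis 0 of 9, with 0 at an unadjusted p under 0.05 in both lists. The cell cycle and DNA replication list had 0 of 18 and 1 unadjusted, with log2 differences from -0.10 to 0.56. Leaf growth regulators had 0 of 19 and 3 unadjusted. A missed call in these lists does not show that the genotypes were alike.

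Hormone and stress lists had few calls as well. Cold and dehydration genes had 0 of 14 called and 3 at an unadjusted p under 0.05 in limma, with COR15B at 1.69, 3.45 and 0.72 TPM in phyA-211, against 7.76, 4.74 and 2.84 TPM in Col-0 (-1.08, adjusted p = 0.175). Salicylate and defence genes had 0 of 10 and 3 unadjusted. PR1, a marker of that pathway, had 1.03, 1.03 and 3.35 TPM in phyA-211, against 0, 0.09 and 0.25 TPM in Col-0 and came close (1.24, adjusted p = 0.0576). Glucosinolate synthesis had 0 of 24 and 3 unadjusted, brassinosteroid genes 0 of 9 and 1 unadjusted, and type-A response regulators of cytokinin 0 of 8 and 2 unadjusted, with ARR7 at 4.9, 3.78 and 4.92 TPM in phyA-211, against 2.35, 1.67 and 2.36 TPM in Col-0 (0.82, adjusted p = 0.0595). In the jasmonate list 1 of 15 was called, against 2.15% of all genes. AOC2, an allene oxide cyclase, had 15.3, 30.1 and 13 TPM in phyA-211, against 73.9, 34.4 and 56.05 TPM in Col-0 (log2 difference -1.47, SE 0.31, adjusted p = 0.0287), where the second mutant library came near the lowest of Col-0. Its tandem copy AOC1 stood at -0.53, adjusted p = 0.0985, and reads of the copies may be shared.

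Markers of other tissues did not pass in limma. Root markers had 0 of 10 called and 1 at an unadjusted p under 0.05. The summed TPM of the root markers was 855, 1935 and 1058 in phyA-211 replicates 1 to 3, against 958, 1215 and 714 in Col-0. The ranges overlapped, with replicate 2 of the mutant the highest. Shoot meristem markers (0 of 4 called, 0 unadjusted) summed to 17.7 to 21.8 TPM in phyA-211, against 16.6 to 17.2 TPM in Col-0, ranges that did not overlap. Stomatal markers (0 of 7, 1 unadjusted) summed to 63.9 to 74.7 TPM in phyA-211, against 55.4 to 67.3 TPM in Col-0, and vascular markers (0 of 7, 1 unadjusted) to 115 to 167 TPM in phyA-211, against 115 to 147 TPM in Col-0. No marker was at 0 in all 3 libraries of either group. Their part in the results above was not tested.

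With sucrose, 824 genes were higher and 645 lower in phyA-211, which is 7.4% of the genes tested. Those 6 libraries enter the sorbitol comparison only through the filter and the shared spread. The balance of directions was not stable: it was 581 higher and 927 lower with median-ratio rescaling, 654 higher and 855 lower with quantile normalization, and 637 higher and 649 lower with the replicate number as a block. Of the 428 genes called with sorbitol, 423 had the same sign with sucrose, against 73.0% of all genes. The same call was made for 352 genes, which is 82.2% of the calls with sorbitol and 24.0% of those with sucrose. Both comparisons share 1 estimate of the spread per gene. Replicate 3 of the mutant given sucrose was unlike replicates 1 and 2. Its antenna and Rubisco genes summed to 39405 TPM, against 89683 and 78715 TPM. The asparagine synthetase gene ASN1 had 4.07 TPM in it, against 123 and 189 TPM. The fits without 1 library left out sorbitol libraries only. So the effect of that replicate on the sucrose counts, the difference between the sugars and the shared spread was not tested. PHYA had 44.9, 44.7 and 37.4 TPM in phyA-211, against 343, 269.9 and 223 TPM in Col-0 with sucrose (-2.67, adjusted p = 3.80e-06), and HY5 had 16.8, 12.3 and 9.03 TPM in phyA-211, against 47.3, 40.4 and 40.4 TPM in Col-0 (-1.71, adjusted p = 0.000158). QRT1 had 66.5, 69.7 and 57.2 TPM in phyA-211, against 0.74, 0.41 and 0.81 TPM in Col-0, again near 0 in Col-0. Among genes called with sorbitol but missed with sucrose, FLC had 33.2, 38.3 and 33.2 TPM in phyA-211, against 22.3, 28.8 and 28.5 TPM in Col-0 with sucrose (0.39, adjusted p = 0.168), and XTH17 had 61.9, 83.96 and 115 TPM in phyA-211, against 79.2, 63.1 and 72.97 TPM in Col-0 (0.24, adjusted p = 0.589).

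The test of the difference between the sugars was passed by 2 genes of all tested, 0.0101%, with 792 (3.99%) at an unadjusted p under 0.05. It was passed by 0 of the 428 in limma, of which 80 (18.7%) had an unadjusted p under 0.05. The 428 were chosen by the sorbitol difference, which is part of this contrast, so the larger share among them is no test. So no call above is shown to be particular to sorbitol. Among called genes, AT5G05635, AT5G02760, AT5G65660 and HOL1 had the smallest adjusted p for this difference. AT5G05635, a gene without description that overlaps AT5G05640, had 4.01, 12.6 and 9.66 TPM in phyA-211, against 0, 0 and 0 TPM in Col-0 with sorbitol and 1.56, 2.57 and 0 TPM in phyA-211, against 5.67, 2.53 and 3.94 TPM in Col-0 with sucrose (adjusted p = 0.135 for the difference). AT5G02760, a protein phosphatase of the PP2C family, had 177, 188 and 192 TPM in phyA-211, against 122, 115 and 100.2 TPM in Col-0 with sorbitol and 370.5, 355 and 410.4 TPM in phyA-211, against 146, 118 and 122 TPM in Col-0 with sucrose (log2 difference of the differences 0.83, SE 0.17, adjusted p = 0.548). AT5G65660, a hydroxyproline-rich glycoprotein, had 67.7, 84.6 and 70.3 TPM in phyA-211, against 33.1, 45.3 and 40.96 TPM in Col-0 with sorbitol and 25.2, 31.9 and 24.2 TPM in phyA-211, against 28.5, 25.5 and 30.9 TPM in Col-0 with sucrose (log2 difference of the differences -0.95, SE 0.21, adjusted p = 0.636). HOL1, which methylates halide ions, had 347, 348 and 354 TPM in phyA-211, against 471, 498 and 553 TPM in Col-0 with sorbitol and 229.9, 235 and 205 TPM in phyA-211, against 518, 498 and 501 TPM in Col-0 with sucrose (log2 difference of the differences -0.64, SE 0.15, adjusted p = 0.636).

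**Figure D5:**
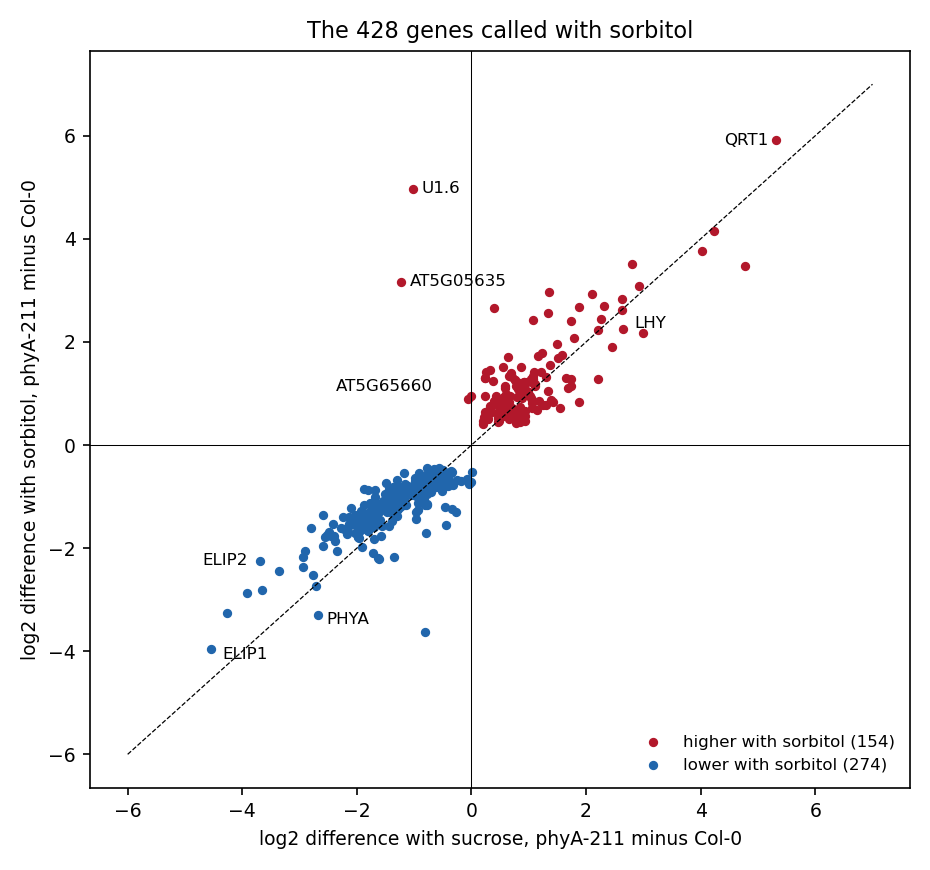
Log2 difference of TPM + 1 between phyA-211 and Col-0 with sorbitol (vertical) against that with sucrose (horizontal) for the 428 genes called with sorbitol, red where higher and blue where lower, with a dashed line of equal differences. All but 5 points lie in the quadrants of equal sign, with U1.6 and AT5G05635 the farthest of those outside, both listed at 0 in Col-0 with sorbitol.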

How the data were processed

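Leaf poly(A) RNA was measured in 12 libraries, and the authors deposited TPM for 32833 genes in 1 table, per the file headers. The submitters' processing notes name the build TAIR10 and the tools HISAT2, fastp, cutadapt and DESeq2, with neither versions nor roles. No source used here states how the TPM were counted or whether strand was used. Groups came from the sample labels, 3 libraries in each of 4 groups. Genes at 1 TPM or above in 3 or more libraries were kept. Genes below 1 TPM throughout 1 genotype passed only through the other, where they are high. Their p-values are no independent support. Values of log2(TPM + 1) were fitted as 4 group means with limma 3.58.1 in R 4.3.3 (eBayes with a trend, 8 residual and 3.68 prior degrees of freedom, no replicate block), with Benjamini-Hochberg adjustment over 19862 genes for each of 3 contrasts: phyA-211 against Col-0 with sorbitol, the same with sucrose, and their difference. Fold changes on this scale understate low genes, and a TPM of 0 may be a failed estimate. Tables were handled with Python 3.11.15 and pandas 2.3.3, and the fit was tested on simulated data.

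Gene names came from the table and from RefSeq (assembly TAIR10.1), used for names, overlap and order only. The 33 lists, with 482 entries, and the families were chosen with earlier results of these data known, and 2 more lists were picked after the values were seen. The rule for naming took PHYA and the 10 genes on either side, the 12 largest rises and falls among called genes with a symbol that reached 5 TPM on average in either genotype, up to 4 members of a list and up to 2 called members of a family by adjusted p, and 4 called genes by the difference between sugars. Alternatives varied the added constant, the filter, the scaling, the prior, library weights, the block and the libraries fitted. Sequences and promoter motifs were not analysed here. Values of 2 list members are not reported here.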

Additional observations from a re-analysis of the deposited data

Results flagged for a closer look

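Passing the test of a genotype difference that differs between the sugars singled out 2 genes, neither of them called with sorbitol. TEM1, a repressor of flowering with AP2 and B3 domains, had 216, 199.6 and 208 TPM in phyA-211, against 159, 172 and 183 TPM in Col-0 with sorbitol, and 159, 144 and 129.7 TPM in phyA-211, against 35.9, 37.8 and 50.4 TPM in Col-0 with sucrose. The difference between the sugars was 1.51 on the log2 scale (SE 0.19, adjusted p = 0.0473). For ath-MIR833a, a microRNA gene, every sorbitol library is listed at 0, and it had 15.2, 15.9 and 23.6 TPM in phyA-211, against 0, 0 and 0 TPM in Col-0 with sucrose. Its difference between the sugars was 4.24 (SE 0.27, adjusted p = 5.33e-05). With 3 libraries above 0 this fitted value is no fold change. This gene met the filter of 1 TPM in 3 libraries only through those 3, where it is high. The libraries at 0 have no spread, so the p-value is no independent support. The gene overlaps AT1G78476 and AT1G09817 in the annotation.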

How the results depend on the processing

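The log2 difference of PHYA in phyA-211 with sorbitol kept its direction and its call in every alternative, with values from -3.39 to -3.22 over the fits without 1 library. Genes higher in phyA-211 numbered 154 and ranged from 52 to 151 without 1 library, and genes lower numbered 274 and ranged from 103 to 272. Fitting only the 6 sorbitol libraries gave 93 higher and 178 lower, and library weights, which ran from 0.192 to 4.89, gave 2729 and 2294. Median-ratio rescaling gave 424 lower and quantile normalization 414. Genes whose genotype difference differed between the sugars numbered 2, and 1376 with weights, 3 with an added constant of 5 TPM, 1 with no filter, 1 with median-ratio rescaling, 1 with quantile normalization, 1 with no trend in the prior, and 1 to 2 without 1 library. The causes were not tested.

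Deviations of same-numbered phyA-211 and Col-0 libraries with sorbitol correlated at -0.016, 0.155 and 0.254. Over all pairs of groups such values ran from -0.268 to 0.310. So few values cannot settle whether the numbers pair the libraries or follow a batch. With the replicate number as a block, 138 genes were higher and 275 lower, 354 of them shared with the 428, and 1 gene differed between the sugars.

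Of 106 called genes followed through the alternatives, another added constant, filter, scaling or prior lost 0 to 18 calls, the fit of 6 libraries 36 and the fits without 1 library 22 to 53, and 0 changed sign. Signs changed in uncalled genes near 0. The log2 change of FAR1 was -0.061 with median-ratio rescaling, -0.048 with quantile normalization and -0.073 with weights, and -0.093 to 0.082 without 1 library. The log2 change of FHY1 was -0.034 and -0.031 with those rescalings and -0.11 to 0.25 without 1 library. The log2 change of FHY3 was -0.049 with weights and -0.027 to 0.15 without 1 library. Depth is unknown, and values near 1 TPM are the least certain.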

Other observations

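Other metabolic genes, picked after their values were seen, were among the calls. CT-BMY, a chloroplast beta-amylase that breaks down starch, had 70.4, 112 and 57.4 TPM in phyA-211, against 344, 232 and 146 TPM in Col-0 (log2 difference -1.55, SE 0.29, adjusted p = 0.0188), and it overlaps the noncoding AT4G06665, which fell too. ATSPS4F, a sucrose-phosphate synthase, had 7.42, 10.4 and 6.97 TPM in phyA-211, against 41.1, 28.6 and 23.4 TPM in Col-0 (log2 difference -1.77, SE 0.21, adjusted p = 0.00122). GLDP1, a glycine decarboxylase subunit of photorespiration, had 246, 304 and 234 TPM in phyA-211, against 802, 612 and 615 TPM in Col-0 (log2 difference -1.37, SE 0.24, adjusted p = 0.0134). FAD8, a plastid fatty acid desaturase, had 12, 14.6 and 9.71 TPM in phyA-211, against 55, 40.4 and 35.8 TPM in Col-0 (log2 difference -1.77, SE 0.18, adjusted p = 0.000444), and PDX1.1, an enzyme of vitamin B6 synthesis, had 111, 112 and 101 TPM in phyA-211, against 297, 220.1 and 352 TPM in Col-0 (log2 difference -1.39, SE 0.26, adjusted p = 0.0175). GASA1, a small secreted peptide of the gibberellin-regulated family and abundant here, had 1105, 1225 and 989 TPM in phyA-211, against 3154, 2305 and 2427 TPM in Col-0 (log2 difference -1.24, SE 0.17, adjusted p = 0.00306). Groups were separate for each of these 6 genes. Leaving out a library lost the call of CT-BMY and PDX1.1 in 4 of 6 fits and that of GLDP1 in 3.

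Some genes without a symbol, also picked after their values were seen, stood far apart between the genotypes. AT4G23015, a transmembrane protein, was listed at 0 in each mutant library against 9.7, 12.8 and 11.9 TPM in Col-0 (adjusted p = 0.0026). AT1G27565 had 16.7, 17.1 and 18.1 TPM in phyA-211, against 2.6, 1.47 and 0.92 TPM in Col-0 (log2 difference 2.83, SE 0.19, adjusted p = 2.87e-05), and AT5G62140, described as a Clp protease subunit, had 3.06, 2.59 and 2.92 TPM in phyA-211, against 28.6, 19.2 and 16.8 TPM in Col-0 (log2 difference -2.51, SE 0.20, adjusted p = 7.96e-05). AT2G06305, a noncoding RNA, had 9.62, 10.8 and 10.6 TPM in phyA-211, against 0, 0 and 0 TPM in Col-0 (adjusted p = 0.00106). For AT4G23015 and AT2G06305 the libraries at 0 add no spread, so those p-values are no independent support. The sugar-repressed gene ASN1, an asparagine synthetase, varied widely within Col-0 with sorbitol, at 512 to 1442 TPM, against 842 to 998 TPM in phyA-211.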
